A study of Mus musculus with 8 samples.

Results

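The unfolded protein, integrated stress and heat shock responses were followed in mouse brain cortex through 30 genes named by symbol, 18 of the endoplasmic reticulum (ER) and integrated stress responses (Atf3 to Calr) and 12 of the heat shock response (Hspa1a to Hspa4l). Of these, 29 matched a row by gene identifier, out of 15693 genes measured. Trib3, a pseudokinase gene induced by ER stress, had no matching row and was not analysed here. The 17 measured ER and integrated stress genes had at least 17 counts in every library and the 12 heat shock genes at least 90, so that no measured member was lost to a filter on low counts. Polyadenylated RNA was sequenced from dissected mouse cortex in 4 TDP-43Q331K libraries and 4 wild-type (WT) libraries. The mice were 4 months old and no treatment is named. Tardbp codes for TDP-43, which binds RNA, and Q331K is a substitution found in patients with amyotrophic lateral sclerosis (ALS). Whether the line is a transgene or a knock-in, and under which promoter, the labels leave unsaid. WT is given as C57BL/6J on each sample and as C57BL/6N in the series' text, so the substrain is uncertain.

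These responses deal with misfolded protein in different compartments. In the ER, unfolded protein releases the sensors IRE1, PERK and ATF6, and chaperones such as BiP, the product of Hspa5, are then made in larger amounts. PERK and related kinases phosphorylate the translation factor eIF2, which lowers protein synthesis overall but lets the transcription factor ATF4 be made, and this branch is called the integrated stress response. In the cytosol the heat shock factor HSF1 raises HSP70, HSP40 and small heat shock proteins. Neurons are long-lived cells in which ALS-linked proteins form aggregates, which is why these genes are often measured in ALS models.

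Promoter windows, from 250 bases before to 50 bases after the annotated start, were taken from RefSeq on GRCm38.p6 and were found for 27 of the 30 members. Hsp90aa1, Hspa8 and Cryab were not matched. The first set is shown because its ER chaperone genes hold a known stress element. Capitals mark the ER stress response element, searched as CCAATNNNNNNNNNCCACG on both strands. The windows are chr2:34771840-34772139 on the plus strand, chr10:86705395-86705694 on the minus strand, chr12:17266339-17266638 on the plus strand and chr8:84846882-84847181 on the minus strand.
Hspa5: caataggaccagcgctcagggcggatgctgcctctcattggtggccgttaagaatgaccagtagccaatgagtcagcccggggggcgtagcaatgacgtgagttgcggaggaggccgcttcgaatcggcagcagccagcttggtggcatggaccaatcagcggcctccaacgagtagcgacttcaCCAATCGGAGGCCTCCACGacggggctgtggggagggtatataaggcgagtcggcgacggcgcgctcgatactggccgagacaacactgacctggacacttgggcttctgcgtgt
Hsp90b1: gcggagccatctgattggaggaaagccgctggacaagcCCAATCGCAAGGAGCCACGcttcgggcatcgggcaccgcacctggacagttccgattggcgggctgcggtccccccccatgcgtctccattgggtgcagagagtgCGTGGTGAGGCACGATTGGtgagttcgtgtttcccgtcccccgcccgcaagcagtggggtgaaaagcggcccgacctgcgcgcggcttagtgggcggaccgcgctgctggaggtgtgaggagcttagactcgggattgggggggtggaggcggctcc
Pdia6: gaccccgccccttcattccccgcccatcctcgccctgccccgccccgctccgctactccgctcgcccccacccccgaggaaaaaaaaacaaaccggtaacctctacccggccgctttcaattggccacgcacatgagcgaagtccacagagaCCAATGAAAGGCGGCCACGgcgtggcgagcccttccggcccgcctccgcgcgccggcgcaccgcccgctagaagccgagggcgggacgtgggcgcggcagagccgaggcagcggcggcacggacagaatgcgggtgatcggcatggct
Calr: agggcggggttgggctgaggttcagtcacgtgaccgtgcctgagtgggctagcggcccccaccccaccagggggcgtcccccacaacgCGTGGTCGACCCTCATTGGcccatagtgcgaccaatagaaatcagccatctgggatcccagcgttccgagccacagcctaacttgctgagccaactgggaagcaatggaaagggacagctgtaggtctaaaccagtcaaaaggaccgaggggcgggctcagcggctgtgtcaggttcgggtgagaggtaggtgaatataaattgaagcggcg
The element was in 5 of the 18 ER and integrated stress promoters (27.8%), in 0 of 9 heat shock promoters and in 0.137% of the promoters of 27025 genes. The fifth was that of Creld2, whose window is not shown. The 4 genes shown were among the 6 ER folding genes that were highest in TDP-43Q331K replicates 1 and 2. Those libraries were set apart after their values were seen, and they were highest for 6.39% of all genes. A link of the element to these levels was not tested. The other 2, Pdia4 and Sdf2l1, had no match. Creld2 was highest in TDP-43Q331K replicate 2, at 13.42 CPM. Its level in TDP-43Q331K replicate 1, 11.56 CPM, was below WT replicates 2 and 3, at 11.79 and 11.99 CPM. In Hspa5 the match began 65 bases before the start, and Hsp90b1 held 2 matches, which began 212 and 107 bases before it.

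The Hspa1a and Hspa1b windows are shown because this pair of inducible HSP70 genes had the largest fold changes of the heat shock members and is nearly one sequence. Capitals mark a heat shock element core, searched as GAANNTTC, which reads the same on both strands. The windows are chr17:34972107-34972406 and chr17:34959189-34959488, on the minus strand.
Hspa1a: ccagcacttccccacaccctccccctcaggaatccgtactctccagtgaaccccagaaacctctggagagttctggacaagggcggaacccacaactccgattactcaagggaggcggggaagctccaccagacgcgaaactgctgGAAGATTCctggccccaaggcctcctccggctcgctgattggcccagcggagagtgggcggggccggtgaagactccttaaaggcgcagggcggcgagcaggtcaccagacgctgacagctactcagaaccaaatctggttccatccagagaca
Hspa1b: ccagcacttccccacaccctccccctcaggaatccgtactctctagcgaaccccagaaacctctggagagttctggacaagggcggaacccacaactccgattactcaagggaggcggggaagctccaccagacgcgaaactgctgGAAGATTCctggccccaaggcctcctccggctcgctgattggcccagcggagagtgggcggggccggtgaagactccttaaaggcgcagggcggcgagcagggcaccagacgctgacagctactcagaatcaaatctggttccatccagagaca
The 2 windows were identical at 296 of 300 bases (98.7%), and the core began 104 bases before the start in each. It was in 7 of the 9 heat shock promoters, in 1 of 18 ER and integrated stress promoters and in 9.04% of all promoters. A longer form, the core followed by GAA after a gap of 2 bases, was in 3 of the 9 (Hsph1, Hspd1 and Hspe1) and in 0.662% of all promoters. The ATF4 composite site, searched as TGATGNAA on both strands, was in 5 of the 18 ER and integrated stress promoters (Atf3, Asns, Chac1, Herpud1 and Trib3), in 0 of the 9 heat shock promoters and in 4.51% of all. In Asns it overlaps the heat shock core, and the Hspd1 and Hspe1 windows overlap each other. A match is a run of letters in the window and not evidence of binding.

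Total counts per library ran from 50446486 to 54890055 in TDP-43Q331K and from 45253021 to 58115164 in WT. Levels are CPM, which here means gene counts relative to TMM-scaled totals. The cortical excitatory marker Slc17a7 averaged 1250 ± 40.9 CPM in TDP-43Q331K and 1323 ± 86.4 CPM in WT (SD, n = 4 each), and all 6 such markers were measured. Tardbp averaged 155 ± 11.7 CPM in TDP-43Q331K and 185 ± 12.8 CPM in WT (SD, n = 4 each), with an adjusted p of 0.106 from edgeR and 0.0117 from DESeq2. Xist, the X-inactivation RNA of female cells, reached 1015 and 905 CPM in the first 2 TDP-43Q331K replicates and 984 and 876 CPM in WT replicates 2 and 3, with no more than 1.37 CPM elsewhere. The labels do not give the sex of the mice. They also do not say that the libraries of a group came from separate mice, so p values measure the spread between these libraries.

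The comparison of the genotypes asked whether transcripts of these responses differ in the cortex of the mutant mice. No member passed edgeR's quasi-likelihood test at an adjusted p under 0.05 over all genes, in either part of the list, where it called 0.943% of all genes (0.344% higher and 0.599% lower). The smallest adjusted p was 0.12, for Hspa4l. At an unadjusted p under 0.05 there were 3 of 17 ER and integrated stress genes and 4 of 12 heat shock genes, all 7 of them higher in TDP-43Q331K. Over all genes 7.91% were higher at that level and 7.77% lower. DESeq2 called 3 members, Ddit4, Hspa1b and Hspa4l, all higher, where it called 4.47% of all genes (1.84% higher and 2.63% lower). limma on log2 of the deposited values called 0 members and 1% of all genes. In bulk tissue, more RNA per cell and more cells of a type cannot be told apart.

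**Figure D1:**
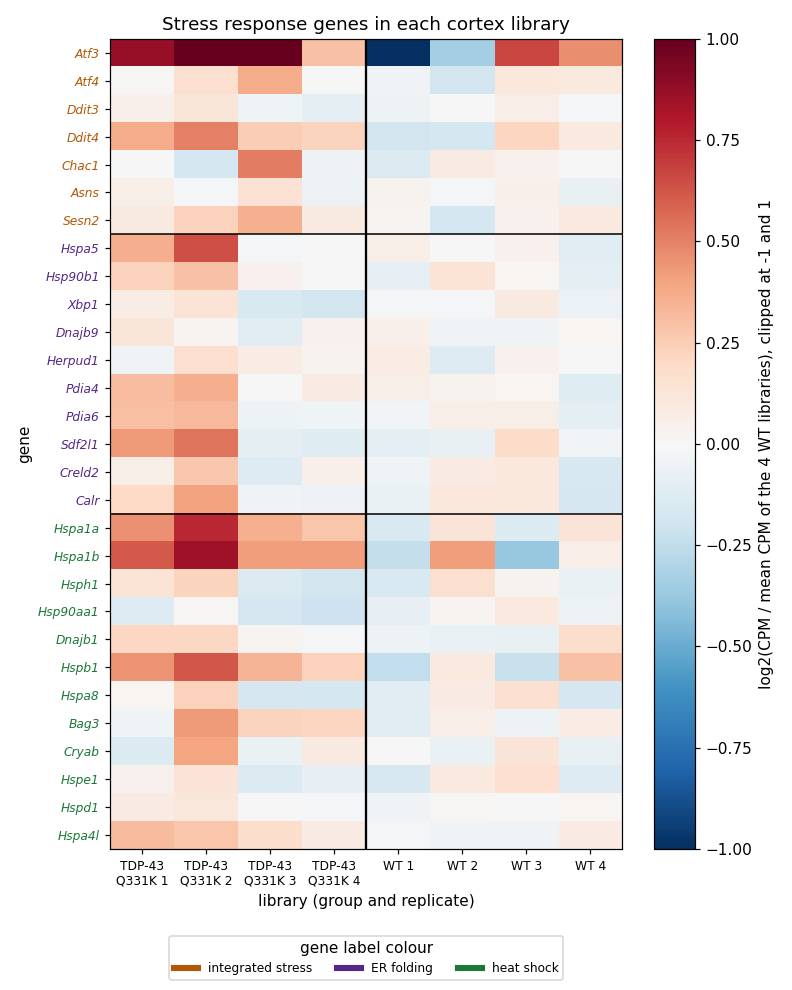
Level of each of the 29 measured genes (rows) in each of the 8 libraries (columns), as the log2 ratio of its CPM to the mean of the 4 WT libraries, clipped at -1 and 1. Hspa5, Hsp90b1, Pdia4, Pdia6, Sdf2l1 and Calr are reddest in TDP-43Q331K replicates 1 and 2, and Hspa1a and Hspa1b are red in all 4 TDP-43Q331K libraries.

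The fold changes were mostly small and above 0. The log2 fold change was positive in 16 of the 17 ER and integrated stress genes, with a median of 0.14, and in 9 of the 12 heat shock genes, with a median of 0.10. Over all genes it was positive in 51.8%, with a median of 0.0045. The ER and integrated stress genes ranged from -0.02 (Xbp1) to 0.94 (Atf3), and the heat shock genes from -0.12 (Hsp90aa1) to 0.58 (Hspa1b). The ranges of the 2 lists overlapped, and since their genes share libraries no test was set on the difference of the medians.

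**Figure D2:**
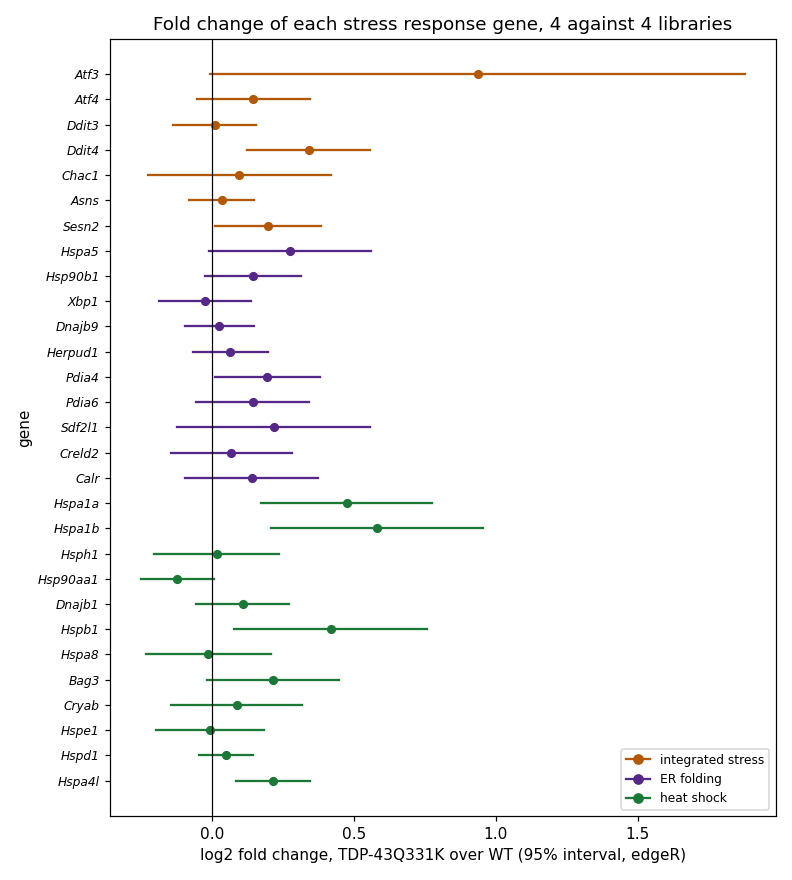
Log2 fold change of each member, TDP-43Q331K over WT (x axis), with its 95% interval from edgeR, coloured by role. The intervals of Ddit4, Sesn2, Pdia4, Hspa1a, Hspa1b, Hspb1 and Hspa4l lie above 0 before adjustment for the number of genes, and none lies below it.

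Among the integrated stress genes, the transcription factors came first. Atf4, the central transcription factor of the response, was at 83.7, 92.8, 108 and 83.3 CPM in TDP-43Q331K replicates 1 to 4 and at 81.1, 73.2, 89.3 and 88.7 CPM in WT replicates 1 to 4. The groups overlapped, with the highest value in TDP-43Q331K replicate 3 and the lowest in WT replicate 2. The log2 fold change was 0.15, with an SE of 0.09 and an edgeR adjusted p of 0.466, and it was 0.06 without TDP-43Q331K replicate 3 and 0.09 without WT replicate 2. ATF4 is controlled mainly through its translation, which RNA levels do not report.

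Atf3, a factor induced early by many kinds of stress, was at 2.6, 3.59, 2.91 and 1.74 CPM in TDP-43Q331K and at 0.343, 1.12, 2.25 and 1.96 CPM in WT. These were 96 to 197 counts in TDP-43Q331K libraries and 17 to 118 counts in WT libraries, so the level was low and uneven. Its log2 fold change, 0.94 (SE 0.43, edgeR adjusted p 0.322), was the largest of the members, and the groups overlapped. With the mean of thalamic and olfactory bulb markers as a covariate it was 0.24 (edgeR adjusted p 0.867), below that of Hspa1b. With any 1 library omitted it ran from 0.61 to 1.26.

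Ddit3 encodes CHOP, a factor linked to cell death under lasting ER stress. It was even across libraries, at 13.8 to 16.1 CPM in TDP-43Q331K and 14.2 to 15.4 CPM in WT. Its log2 fold change was 0.01, with a 95% interval from -0.14 to 0.15, and its sign turned with upper quartile scaling (-0.0081). Ddit3 shares 68 exon bases with Mars on the opposite strand, and the strand setting of the counting is unknown here.

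Ddit4, which encodes the mTORC1 inhibitor REDD1 and also responds to glucocorticoids and hypoxia, was at 55.5, 61.1, 51.0 and 50.1 CPM in TDP-43Q331K and at 37.9, 38.1, 50.0 and 46.0 CPM in WT. The groups did not overlap, but TDP-43Q331K replicate 4 and WT replicate 3 nearly met. Among the 29 members the groups were apart for Ddit4 and Hspa1a only, both higher in TDP-43Q331K. Over all genes they were apart for 9.68%, with 4.49% higher and 5.19% lower. The mean was 54.4 ± 5.06 CPM in TDP-43Q331K and 43.0 ± 5.98 CPM in WT (SD, n = 4 each). The log2 fold change was 0.34 (SE 0.10), with an adjusted p of 0.136 from edgeR and 0.0311 from DESeq2. With the mean of thalamic and olfactory bulb markers as a covariate it was 0.15 (edgeR adjusted p 0.574).

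The remaining integrated stress genes act on amino acids and redox state. Sesn2, which encodes a leucine sensor that restrains mTORC1, averaged 15.3 ± 1.4 CPM in TDP-43Q331K and 13.3 ± 1.08 CPM in WT (SD, n = 4 each), with a log2 fold change of 0.20 (edgeR adjusted p 0.293). Asns, asparagine synthetase, averaged 86.6 ± 5.47 CPM in TDP-43Q331K and 84.6 ± 3.27 CPM in WT (SD, n = 4 each). Chac1, an enzyme that breaks down glutathione, was at 4.65 to 7.5 CPM in TDP-43Q331K and at 4.74 to 5.57 CPM in WT, and its highest value was again in TDP-43Q331K replicate 3. The log2 fold changes of Asns and Chac1 were 0.03 and 0.10, and without TDP-43Q331K replicate 3 they were -0.0059 and -0.076. That library held the highest level of Atf4, Sesn2, Asns and Chac1 of the 8, genes picked out after their values were seen. The share of all genes highest in that library was not counted, so this is a description only. The other integrated stress genes, Atf3, Ddit3 and Ddit4, were instead highest in TDP-43Q331K replicate 2.

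The ER folding genes differed more among the TDP-43Q331K libraries than among the WT libraries. Hspa5, which encodes the chaperone BiP, was at 258, 312, 197 and 201 CPM in TDP-43Q331K and at 208, 201, 206 and 185 CPM in WT. Replicates 1 and 2 of TDP-43Q331K stood above all other libraries, while replicates 3 and 4 lay within the WT range. The mean was 242 ± 54.2 CPM in TDP-43Q331K and 199.9 ± 10.5 CPM in WT (SD, n = 4 each), which is 0.28 on the log2 scale (SE 0.13, edgeR adjusted p 0.336). Without TDP-43Q331K replicate 2 the log2 fold change was 0.13, its lowest value with any 1 library omitted.

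Calr encodes calreticulin, a calcium-binding chaperone for glycoproteins, and repeated that order. It was at 334, 384, 282 and 278 CPM in TDP-43Q331K and at 278, 313, 312 and 258 CPM in WT. Hsp90b1, the ER form of HSP90, was at 219, 228, 192 and 186 CPM in TDP-43Q331K and at 177, 206, 189 and 176 CPM in WT. Pdia6, a disulfide isomerase, was at 107, 109, 83.6 and 84.4 CPM in TDP-43Q331K and at 85.0, 90.3, 90.6 and 81.2 CPM in WT. Each of these 3 genes, like Hspa5, was highest in TDP-43Q331K replicates 1 and 2. Their log2 fold changes were 0.14 each, and their edgeR adjusted p values were 0.561 for Calr, 0.396 for Hsp90b1 and 0.476 for Pdia6. Without TDP-43Q331K replicate 2 the log2 fold changes were 0.04 for Calr, 0.09 for Hsp90b1 and 0.08 for Pdia6. Hsp90b1 and Pdia6 share exon bases with another measured gene, 84 bases of Gm15344 and 50 bases of Atp6v1c2.

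Pdia4, another disulfide isomerase, was at 37.8, 39.2, 30.6 and 32.5 CPM in TDP-43Q331K and at 31.8, 31.4, 31 and 28.1 CPM in WT, which is 0.19 on the log2 scale (SE 0.08, edgeR adjusted p 0.294). Sdf2l1, a partner of BiP and its co-chaperones, was at 8.46, 9.14, 5.95 and 5.81 CPM in TDP-43Q331K and at 5.91, 6.0, 7.16 and 6.2 CPM in WT, with a log2 fold change of 0.22 (edgeR adjusted p 0.534) that was 0.09 without TDP-43Q331K replicate 2. In both genes the 2 highest libraries were again TDP-43Q331K replicates 1 and 2. Creld2, an ER stress-inducible gene with the element, averaged 11.7 ± 1.34 CPM in TDP-43Q331K and 11.1 ± 0.958 CPM in WT (SD, n = 4 each), and its log2 fold change of 0.07 was -0.007 without TDP-43Q331K replicate 2.

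Xbp1, Dnajb9 and Herpud1 had the smallest fold changes of the 10 ER folding genes. Xbp1, whose RNA IRE1 splices into its active form, averaged 65.7 ± 7.33 CPM in TDP-43Q331K and 66.9 ± 2.99 CPM in WT (SD, n = 4 each), and gene counts do not separate the spliced form. Its log2 fold change was -0.02, with a 95% interval from -0.19 to 0.14. Dnajb9, a co-chaperone of BiP, averaged 48.2 ± 3.18 CPM in TDP-43Q331K and 47.3 ± 1.45 CPM in WT (SD, n = 4 each), with a 95% interval from -0.10 to 0.15. Herpud1, which takes part in ER-associated degradation, averaged 46.5 ± 2.73 CPM in TDP-43Q331K and 44.5 ± 2.64 CPM in WT (SD, n = 4 each), with a 95% interval from -0.07 to 0.20.

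The largest fold changes of the heat shock genes were in those of low level. Hspa1b was at 9.64, 11.3, 8.41 and 8.41 CPM in TDP-43Q331K and at 5.35, 8.41, 4.85 and 6.6 CPM in WT. WT replicate 2 reached the lowest TDP-43Q331K values, and the other 3 WT libraries were below them. The log2 fold change was 0.58 (SE 0.17), with an adjusted p of 0.136 from edgeR and 0.026 from DESeq2. Hspa1a was at 3.6, 4.43, 3.35 and 3.18 CPM in TDP-43Q331K and at 2.36, 2.86, 2.39 and 2.87 CPM in WT. All 4 TDP-43Q331K libraries were above all 4 WT libraries. On the log2 scale the change was 0.47 (SE 0.14), with an adjusted p of 0.132 from edgeR and 0.0644 from DESeq2.

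How the reads divide between Hspa1a and Hspa1b is uncertain, because their transcripts matched at 99.2% identity over 2201 bases. Their counts were therefore also summed. The sum avoids only the question of division, since it is not known whether reads that match both genes were counted. The sum was at 13.2, 15.7, 11.8 and 11.6 CPM in TDP-43Q331K and at 7.7, 11.3, 7.24 and 9.46 CPM in WT, and the groups did not overlap. The mean was 13.1 ± 1.92 CPM in TDP-43Q331K and 8.92 ± 1.84 CPM in WT (SD, n = 4 each). The log2 fold change of the sum was 0.55 (SE 0.15), with an adjusted p of 0.114 from edgeR and 0.0126 from DESeq2. This sum was added after the data were seen.

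Hspa4l, an HSP110-family gene that serves as a nucleotide exchange factor for HSP70, was at 303, 296, 275 and 258 CPM in TDP-43Q331K and at 241, 238, 238 and 258 CPM in WT. Only WT replicate 4 reached the lowest TDP-43Q331K library. The mean was 283 ± 20.6 CPM in TDP-43Q331K and 244 ± 9.85 CPM in WT (SD, n = 4 each). The log2 fold change was 0.21 (SE 0.06), with an adjusted p of 0.12 from edgeR and 0.0242 from DESeq2. Hspa4, its paralog, lay in the wider list of chaperones and was at 231, 247, 247 and 219 CPM in TDP-43Q331K and at 262, 278, 287 and 273 CPM in WT. The groups of Hspa4 did not overlap, and its log2 fold change was -0.22 (SE 0.05), with an adjusted p of 0.0891 from edgeR and 0.00271 from DESeq2. Hsph1, another gene of this family, averaged 329 ± 45.9 CPM in TDP-43Q331K and 325 ± 30.8 CPM in WT (SD, n = 4 each), with a log2 fold change of 0.02 that turned to -0.0012 with upper quartile scaling.

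**Figure D3:**
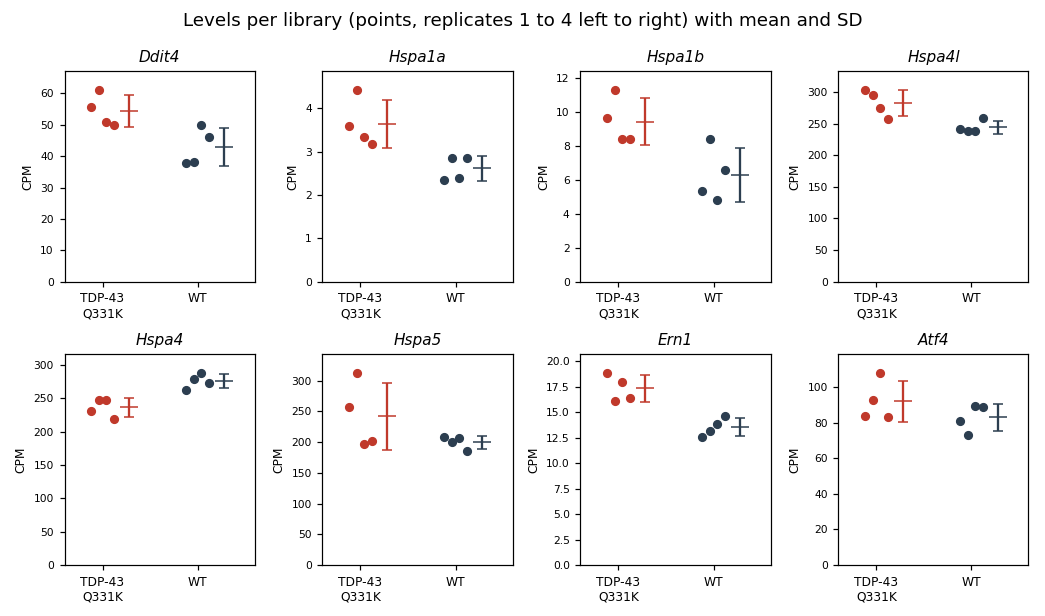
CPM per library (points) with mean and SD (bars) for 8 genes, TDP-43Q331K left and WT right, each axis starting at 0. The mean of Hspa4l is higher and that of Hspa4 lower in TDP-43Q331K, and neither gene passed edgeR's test. Hspa5 is high in only 2 of the 4 TDP-43Q331K libraries.

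The small heat shock protein and co-chaperone genes Hspb1, Bag3, Dnajb1 and Cryab had positive fold changes. In each the groups overlapped, and none passed edgeR's test. Hspb1 was at 2.94, 3.32, 2.73 and 2.53 CPM in TDP-43Q331K and at 1.82, 2.31, 1.85 and 2.65 CPM in WT, which is 0.42 on the log2 scale (SE 0.15, edgeR adjusted p 0.222). Its counts are uncertain, because its unmeasured near copies Gm9817 and Hsp25-ps1 are 99.8% and 99.4% identical to it where aligned. Bag3, which directs chaperone-bound proteins to autophagy, was at 5.98, 8.25, 7.19 and 7.12 CPM in TDP-43Q331K and at 5.73, 6.45, 5.94 and 6.49 CPM in WT, a log2 fold change of 0.22 (edgeR adjusted p 0.353). In both genes the groups overlapped through a single TDP-43Q331K or WT library. Dnajb1, an HSP40 partner of HSP70, was at 62.5, 62.4, 55.0 and 53.3 CPM in TDP-43Q331K and at 52.3, 51.6, 51.4 and 61.2 CPM in WT, a log2 fold change of 0.11 (edgeR adjusted p 0.522). Cryab, a small heat shock protein gene also expressed by oligodendrocytes, was at 54.5, 79.0, 57.4 and 64.0 CPM in TDP-43Q331K and at 59.9, 57.4, 65.8 and 57 CPM in WT. The 8 oligodendrocyte markers summed to 3850, 4942, 4205 and 5391 CPM in TDP-43Q331K and to 4242, 3796, 4457 and 4391 CPM in WT, with 8 of 8 fold changes positive and 0 past edgeR's test, and their part in Cryab was not tested.

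The abundant cytosolic chaperones Hspa8 and Hsp90aa1 had negative fold changes that no test called. Hspa8, the constitutive HSC70, was at 1298, 1504, 1144 and 1138 CPM in TDP-43Q331K and at 1194, 1358, 1437 and 1143 CPM in WT, with a log2 fold change of -0.01 (95% interval from -0.23 to 0.21) that was 0.00058 with library size as the only scaling. Hsp90aa1, the inducible cytosolic HSP90, averaged 842 ± 56.1 CPM in TDP-43Q331K and 916 ± 50.7 CPM in WT (SD, n = 4 each), the lowest log2 fold change of the members at -0.12 (edgeR adjusted p 0.346). Both have measured pseudogenes that are at least 98.5% identical, so their counts are uncertain. Hspd1 and Hspe1 encode the mitochondrial chaperonin and its lid and lie head to head with 112 shared exon bases. Hspd1 averaged 149.9 ± 6.48 CPM in TDP-43Q331K and 145 ± 2.57 CPM in WT (SD, n = 4 each), with a 95% interval of its log2 fold change from -0.05 to 0.14. Hspe1 averaged 40.6 ± 3.38 CPM in TDP-43Q331K and 40.7 ± 4.62 CPM in WT (SD, n = 4 each), with a 95% interval from -0.20 to 0.18.

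Levels per length set the genes in order. Per kilobase of annotated exon, Hspa8 was highest, at 296 CPM per kilobase in TDP-43Q331K and 298 in WT, followed by Hsp90aa1 at 214 and 233. Calr led the ER genes on that scale at 111 CPM per kilobase in TDP-43Q331K and 101 in WT, ahead of Hspa5 at 57.2 and 47.3. Atf4 led the integrated stress genes at 39.0 CPM per kilobase in TDP-43Q331K and 35.2 in WT. This was below Calr, Hspa5 and Hsp90b1 and above the other ER folding genes. Pdia6 was the highest of those others, at 25.6 CPM per kilobase in TDP-43Q331K and 23.2 in WT. Hspa1a and Atf3 were the lowest, at 1.23 and 1.26 CPM per kilobase in TDP-43Q331K and at 0.883 and 0.659 in WT. The inducible HSP70 genes were thus far below their constitutive relative Hspa8 in both groups.

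The 2 TDP-43Q331K libraries with the most ER chaperone RNA were also those high in Xist, so the genotypes were also compared within the 4 libraries high in Xist (TDP-43Q331K replicates 1 and 2, WT replicates 2 and 3) and within the 4 low in it. This split was added after the data were seen. Among the 10 ER folding genes the log2 fold change was positive in 10 of 10 with a median of 0.19 in the libraries high in Xist, and in 7 of 10 with a median of 0.02 in those low in it. Over all genes the medians were -0.00035 and 0.0087. Hspa5 had a log2 fold change of 0.49 in the libraries high in Xist and 0.02 in those low in it. For Sdf2l1 the fold changes were 0.42 and -0.04, and for Pdia6 0.25 and 0.02. The libraries were split because 2 of them were seen to be high, so these values restate that observation and no test of the difference is given. The part of sex in these values was not tested, since the labels do not give it.

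**Figure D4:**
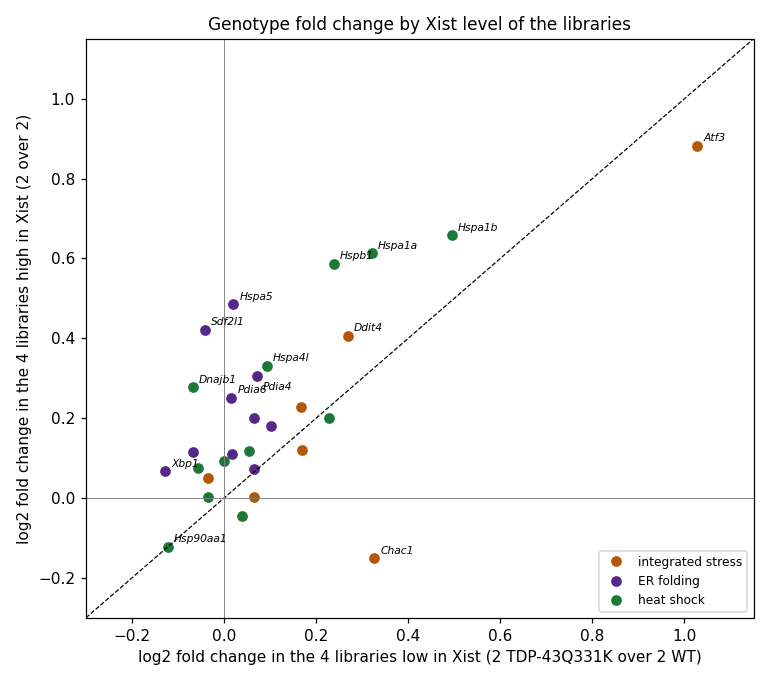
Log2 fold change of each member, TDP-43Q331K over WT, in the 4 libraries high in Xist (y axis) against the 4 low in Xist (x axis), with the line of equality dashed. All 10 ER folding genes lie above the line, Hspa5 and Sdf2l1 furthest and Creld2 only just. Chac1 lies furthest below it, and Atf3, Hspe1, Asns, Atf4 and Bag3 also lie below it. The split was added after the ER folding genes' levels were seen.

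The heat shock genes had a median of 0.16 in the libraries high in Xist and 0.05 in those low in it. Hspa1b and Hspa1a were positive in each, at 0.66 and 0.61 in the libraries high in Xist and at 0.50 and 0.32 in those low in it. Hspa4l was at 0.33 and 0.09, and Dnajb1 at 0.28 and -0.07. The integrated stress genes had a median of 0.12 in the libraries high in Xist and 0.17 in those low in it, with Ddit4 at 0.41 and 0.27 and Chac1 at -0.15 and 0.33. TDP-43Q331K replicates 1 and 2 were the 2 highest of the 8 libraries for 6 of 10 ER folding genes, 6 of 12 heat shock genes and 1 of 7 integrated stress genes, and for 6.39% of all genes. These libraries were set apart after their values were seen, so the counts are a description. WT replicates 2 and 3, also high in Xist, were both above WT replicates 1 and 4 for 5 of the 10 ER folding genes (Hsp90b1, Xbp1, Pdia6, Creld2 and Calr), and for 18.7% of all genes. They were not both above them for Hspa5, Dnajb9, Herpud1, Pdia4 and Sdf2l1.

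Other genes of the pathways were taken from 4 lists of 120 genes, 119 of them measured, and none passed edgeR's test. At an unadjusted p under 0.05 there were 18 (15.1%), against 15.7% of all genes. DESeq2 called 8 of the 119, where it called 4.47% of all genes (1.84% higher and 2.63% lower). Of the 18 sensors and translation control genes, 1 was higher and 1 lower by DESeq2. Ern1, which encodes the ER stress sensor IRE1, was at 18.8, 16.1, 18.0 and 16.4 CPM in TDP-43Q331K and at 12.6, 13.2, 13.8 and 14.6 CPM in WT. The groups did not overlap, and its log2 fold change was 0.36 (SE 0.07), with an adjusted p of 0.0576 from edgeR and 0.00232 from DESeq2. Mbtps2, the protease that helps activate ATF6, averaged 35.3 ± 1.07 CPM in TDP-43Q331K and 39.5 ± 1.06 CPM in WT (SD, n = 4 each), a log2 fold change of -0.16 (edgeR adjusted p 0.132). Eif2ak2, an eIF2 kinase that senses double-stranded RNA, was at 0.19 (edgeR adjusted p 0.417).

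Of the 29 measured genes in the list of other ATF4 and amino acid response genes, 21 had a positive log2 fold change, with a median of 0.05, and DESeq2 called 3, all higher. These were Vegfa, an angiogenic factor, Eprs, a transfer RNA synthetase, and Aldh18a1, an enzyme of proline synthesis. Their log2 fold changes were 0.25, 0.16 and 0.20, and their edgeR adjusted p values were 0.118, 0.125 and 0.126. Of 30 other ER chaperone and degradation genes, 25 were positive with a median of 0.07, and DESeq2 called 0. The lowest p values there were for Dnajc3, an inhibitor of eIF2 kinases, at 0.16, Edem3, which trims glycoproteins for degradation, at 0.14, and Derl1, of the retrotranslocation channel, at 0.17. Their edgeR adjusted p values were 0.152, 0.156 and 0.184.

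The 42 other cytosolic and mitochondrial chaperones were positive in 26, with a median of 0.02, and DESeq2 called 3, all lower. Besides Hspa4 these were Dnajb6, a co-chaperone that suppresses aggregation, and Hsbp1, which binds the heat shock factor HSF1. Dnajb6 averaged 96.4 ± 5.83 CPM in TDP-43Q331K and 111 ± 4.76 CPM in WT (SD, n = 4 each), a log2 fold change of -0.20 (edgeR adjusted p 0.106). Hsbp1 averaged 149 ± 6.76 CPM in TDP-43Q331K and 168 ± 8.1 CPM in WT (SD, n = 4 each), a log2 fold change of -0.17 (edgeR adjusted p 0.139).

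Markers of other tissues and of handling were measured beside these genes. The 8 thalamic and olfactory bulb markers summed to 219 to 273 CPM in TDP-43Q331K and to 124 to 230.2 CPM in WT, with 8 of 8 fold changes positive. With their mean as a covariate no member was past edgeR's test, and the median log2 fold change was 0.101 for the ER and integrated stress genes and 0.0439 for the heat shock genes. Under that covariate Atf3 was at 0.24, Atf4 at 0.01, Ddit4 at 0.15, Herpud1 at 0.02 and Sesn2 at 0.10. Sdf2l1 was at 0.12, Dnajb1 at 0.05 and Cryab at 0.0085. Each of these was less than without the covariate by over 1.5 times, and Ddit3 turned to -0.0225. Hspa1b was at 0.75, Hspa1a at 0.46, Hspa5 at 0.29, Pdia4 at 0.24, Hspa4l at 0.19 and Hsp90b1 at 0.18. The 5 choroid plexus markers ran from 44.5 to 573 CPM in TDP-43Q331K and from 15.0 to 400.1 CPM in WT, and 5 of 5 were positive. The 10 early response genes, which follow neuronal activity and handling, summed to 658 to 1015 CPM in TDP-43Q331K and to 735 to 1026 CPM in WT, with 5 of 10 positive. Endothelial markers summed to 144 to 189 CPM in TDP-43Q331K and to 147 to 188 CPM in WT. Neuronal markers summed to 1533 to 1700 CPM in TDP-43Q331K and to 1618 to 1871 CPM in WT for excitatory cells (0 of 6 positive), and to 939 to 1140 CPM in TDP-43Q331K and 770 to 1084 CPM in WT for interneurons (3 of 5). Astrocyte markers summed to 880 to 1185 CPM in TDP-43Q331K and to 921 to 1153 CPM in WT, and microglial markers to 173 to 197 CPM in TDP-43Q331K and 186 to 214 CPM in WT. Mural cell, meningeal, striatal and blood markers overlapped between the groups likewise, with 2 of 5 blood markers measured. The most abundant marker of each list had a log2 fold change of 0.11 for Mbp (oligodendrocytes), 0.19 for Gad1 (interneurons), -0.01 for Slc1a3 (astrocytes), -0.00029 for Csf1r (microglia), 0.06 for Flt1 (endothelium) and -0.11 for Rgs5 (mural cells). It was -0.55 for Dcn (meninges), 1.16 for Ttr (choroid plexus), 0.22 for Rora (thalamus and olfactory bulb), 0.15 for Rgs9 (striatum), 0.67 for Hbb-bs (blood) and 0.06 for Egr1 (early response). No measured marker was at 0 in a group or past edgeR's test. DESeq2 called 1, the microglial gene P2ry12, which averaged 34.6 ± 1.2 CPM in TDP-43Q331K and 41.3 ± 3.22 CPM in WT (SD, n = 4 each), with a DESeq2 adjusted p of 0.00744 and an edgeR adjusted p of 0.0906. P2ry12 was named after its values were seen. The part of the markers in the members' values was not tested. All 8 thalamic and olfactory bulb markers had positive fold changes, so their mean partly follows genotype. The fit with that covariate therefore cannot separate their part from that of genotype.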

How the data were processed

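Cortex RNA for 8 libraries was purified on silica columns after TRIzol, captured with oligo(dT) beads, and prepared with a stranded Illumina kit for a NovaSeq X, as the labels' protocols state. GRCm39, R 4.3.1, edgeR 4.4.2 and STAR 2.7.6a appear, without roles, in the submitters' processing notes. How and on which strand reads were counted is not given in these sources. One deposited table holds raw counts per gene, per the file headers. The authors' other deposited table holds a TMM-normalised signal, which is the count divided by a TMM-scaled library size in every column (implied factors 0.987 to 1.015). Both hold 15693 genes, and every column was matched to its sample by library name.

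Symbols and exon lengths came from GENCODE M21 (GRCm38) by identifier, with 15470 identifiers matched and 223 not. Near copies were transcripts matched by blastn 2.17.0 at 90% identity or more over 50% of a transcript, found for 11 of the 29 measured members, 4 of them with a measured copy. Promoters are RefSeq windows on GRCm38.p6.

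The genotypes were tested with edgeR 4.0.16 under R 4.3.3 (TMM, filterByExpr, which removed 0 genes, quasi-likelihood F-test, either direction), with Benjamini-Hochberg adjustment over all genes and a threshold of 0.05. SEs were derived from the fold change and its F statistic. Other settings tried were scaling by RLE, by upper quartile or by library size alone, no filter, CPM over 1 in 4 libraries, DESeq2 1.42.0, limma 3.58.1 on log2 of the deposited signal plus 1, replicate number as a block, Xist or the mean of thalamic and olfactory bulb markers as a covariate, and each library left out. The named genes were Tardbp, all members, and, where none of a list passed, the 3 genes of smallest p in each wider list and the most abundant gene of each marker list. One gene of the marker lists was left out and is not reported here. All genes called by DESeq2 in the wider lists are among these. The members, the gene lists and the alternatives were chosen with earlier results of these data known. Figures used Python 3.11.15 and matplotlib 3.10.9.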

Additional observations from a re-analysis of the deposited data

Results flagged for a closer look

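In 4 of the 110 groups of 4 libraries examined for the genes named, 1 library stood far from the other 3, and chance alone gives about 5% of groups. WT replicate 4 was the high library in 3 of them. Dnajb1 was at 61.2 CPM there, with the next WT library at 52.3 CPM. Hspa4l was at 258 CPM there, with the next at 241 CPM, so that this library alone met the TDP-43Q331K range. Edem3 was at 71.0 CPM there, with the next at 65.9 CPM. The choroid plexus gene Ttr was at 363 CPM in WT replicate 1, with the next WT library at 10.7 CPM.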

How the results depend on the processing

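No member passed under any alternative other than DESeq2. Over the 10 alternatives with all libraries, 3 of 290 member values passed, all with DESeq2, which called 1 ER and integrated stress gene, 2 heat shock genes, 8 wider pathway genes and 701 genes in all, against 148 in the main test. The fit with no filter repeats the main test, because the filter removed 0 genes, so its values could not differ. With each of the 8 libraries omitted in turn 0 of 232 passed, and 51 to 129 genes were called in all. Genes called in all fell to 14 with replicate number as a block and 12 with the thalamic and olfactory bulb covariate. That covariate partly follows genotype, so the 12 cannot be read as a test of its part. The replicate block left 0 members called. Same-numbered libraries had correlations of deviations from -0.435 to 0.0956, and 0 of 4 TDP-43Q331K libraries correlated best with its own number. The labels do not say what a shared number marks, and so few libraries cannot settle whether the numbers pair them. The medians ran from 0.0924 to 0.191 for ER and integrated stress genes and from 0.0485 to 0.134 for heat shock genes when 1 library was left out.

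The sign of the log2 fold change turned as follows. Values were -0.0081 for Ddit3 and -0.0012 for Hsph1 with upper quartile scaling, and 0.00058 for Hspa8, 0.0076 for Hspe1, 0.0032 for Slc1a3 and 0.016 for Csf1r with library size only. Csf1r was 2.1e-05 with the CPM filter and 0.00017 with the replicate block, and Hspe1 was 0.0017 with the Xist covariate. With the thalamic and olfactory bulb covariate they were -0.0225 for Ddit3, -0.16 for Gad1, 0.044 for Slc1a3, 0.082 for Csf1r and -0.037 for Egr1. The cause was not tested. Leaving out 1 library gave -0.031 to 0.043 for Ddit3, -0.076 to 0.18 for Chac1, -0.0059 to 0.064 for Asns, -0.082 to 0.024 for Xbp1, -0.017 to 0.067 for Dnajb9, -0.00702 to 0.13 for Creld2, -0.058 to 0.078 for Hsph1, -0.10 to 0.046 for Hspa8, -0.034 to 0.15 for Cryab, -0.057 to 0.054 for Hspe1, -0.053 to 0.039 for Slc1a3, -0.053 to 0.0601 for Csf1r, -0.012 to 0.14 for Flt1, -0.0931 to 0.336 for the striatal marker Rgs9 and -0.052 to 0.14 for Egr1. Depth limits Atf3 most, at 17 counts in 1 library.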
